A study of Drosophila melanogaster with 8 samples.

Results

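Heads of flies kept at 29°C were compared with heads of flies kept at 25°C, a step of 4°C within the warm range of Drosophila melanogaster. The comparison takes 5 of the 8 polyA+ RNA-seq libraries of the series by their temperature label. There are 3 libraries at 29°C (ZT3, ZT15 and ZT23) and 2 at 25°C (ZT3 and ZT15), so that 4 of the 5 are matched by time point. ZT is the time in hours since lights on. The 29°C ZT23 library has no partner at 25°C.

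All 8 libraries are from whole heads of the wild-type strain Canton-S, with no mutation or transgene, and the other 3 were made at 18°C. The flies were kept in cycles of 12 h light and 12 h dark, and the study asked how the transcriptome and the clock follow the ambient temperature. There is 1 library for each temperature and time point, the sex, the age and the number of heads in a library are not given in the sources used here, and the methods name the last time point ZT21 where the labels have ZT23. The time points stand in as the replicates of a temperature. The model used below takes out the change over the day that the temperatures share. A p-value from it measures the spread that remains between all 8 libraries, those at 18°C included. That spread includes changes over the day that differ between temperatures and may in part be technical.

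Flies do not hold a body temperature of their own, and their proteins fold, are made and are turned over at the temperature of the surroundings. Chaperones such as Hsp83, Hsc70-4 and the chaperonin ring formed by the CCT subunits bind unfolded protein and help it to fold, and many of their genes are driven by heat shock factor. A fly head also holds fat body, a tissue that stores nutrients, makes yolk proteins and antimicrobial peptides and breaks down amino acids, beside the eyes and the brain.

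The table gives, for every annotated transcript, its coverage averaged over its length in each library, and libraries were brought to a common sum of 1000000. Levels below are on that scale (scaled coverage), which is already per length, and differences are in log2(scaled coverage + 1), 29°C minus 25°C, which understates the change of low genes. The unscaled sums ranged over the libraries from 92886 to 108550, and the number of reads behind them is unknown. Genes without introns are mostly not listed: 55 of 2144 annotated protein-coding genes with no intron have a value, against 11071 of 11842 with an intron. Hsp70, Hsp26 and other intronless heat shock genes were therefore not analysed here.

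The head markers were present in all 5 libraries. The eye markers ninaE, trp and Arr2 summed to 21838, 19042 and 24183 at 29°C (ZT3, ZT15 and ZT23), against 13840 and 15113 at 25°C (ZT3 and ZT15), so that the groups did not overlap. The 4 neuronal markers elav, nSyb, brp and Syt1 summed to 394, 413 and 484 at 29°C and to 254 and 404 at 25°C, and the glial marker repo had between 17.3 and 17.4 at 29°C against 18.0 and 19.3 at 25°C. The 25°C ZT3 library was thus the lowest in neuronal markers. In bulk heads, fewer cells of a type and less RNA per cell cannot be told apart.

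The 29°C ZT15 library stood apart. It listed 590 transcripts at 0, where the other 7 libraries of the series listed between 1435 and 1612. The 9 listed markers of the male accessory gland and ejaculatory bulb summed to 0.822, 527 and 0.656 at 29°C, in the order ZT3, ZT15 and ZT23, against 0.225 and 1.28 at 25°C. The 8 testis markers summed to 57.0 and the 3 midgut markers to 661 in 29°C ZT15, against at most 1.32 in the other 4 libraries for either list. The 7 ovary markers summed to 80.9 there, and to 15.1 and 12.2 in the other 29°C libraries and 17.3 and 18.4 at 25°C. Every one of these 27 markers was above 0 in 29°C ZT15, while Acp26Aa, Acp76A and Mst84Dc were at 0 in the other 4 libraries. The part of this in single results was not tested, and counts and named genes are given with and without that library.

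**Figure D1:**
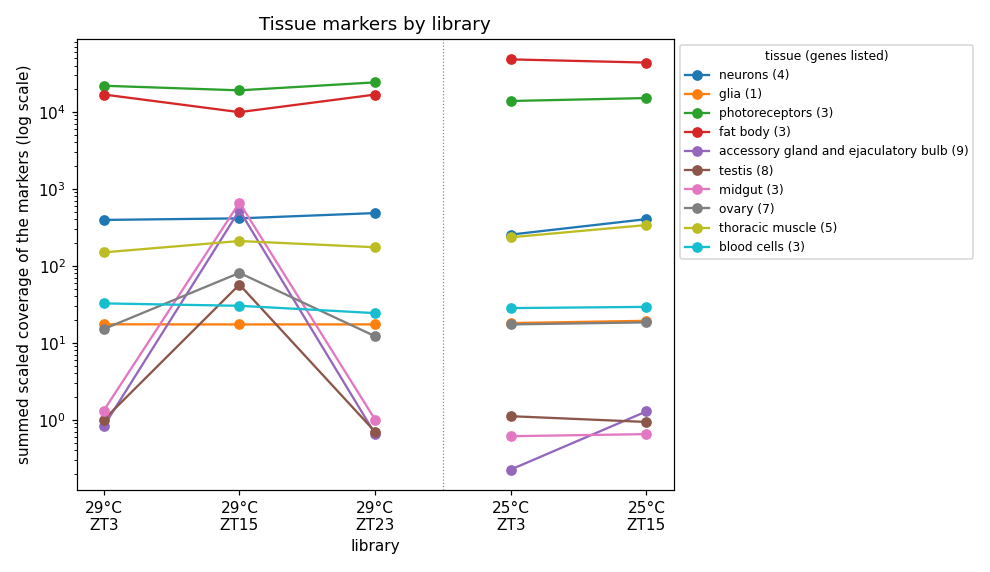
Summed scaled coverage of the listed markers of 10 tissues (log scale) in the 3 libraries at 29°C and the 2 at 25°C, with lines joining libraries of 1 temperature. Markers of accessory gland, testis and midgut reach 527, 57.0 and 661 in 29°C ZT15 and stay at or under 1.32 elsewhere, photoreceptor markers are higher in all 3 libraries at 29°C, and the yolk protein genes that mark fat body are lower in all 3.

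A linear model (limma) of all 8 libraries with temperature and time point was used for every gene, with Benjamini-Hochberg adjustment over all 14799 transcripts kept and a threshold of 0.05 for the adjusted p. Of the 14799 transcripts, 413 rose and 313 fell at 29°C relative to 25°C. With each gene counted by its most abundant transcript, 272 of 8304 genes rose (3.28%) and 174 fell (2.10%). The 29°C libraries lay above both 25°C libraries in 270 of the 272 and below both in 172 of the 174. The same was true of many genes that did not pass: over all 8304, all 3 libraries at 29°C lay above in 2366 genes (28.5%) and below in 1122 (13.5%). At an unadjusted p under 0.05, 2033 genes were higher (24.5%) and 751 lower (9.04%) at 29°C.

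These calls rest on all of the libraries together, since 3 residual degrees of freedom remain in the model and 2 when a library is left out. With 29°C ZT15 left out, 68 transcripts rose and 131 fell, and counted by gene 52 rose (0.626%) and 94 fell (1.13%). Leaving out another library left at most 16 calls in place of 726: 11 without 18°C ZT3, 16 without 18°C ZT15, 2 without 18°C ZT23, 0 without 25°C ZT3 and 0 without 25°C ZT15 (2866 and 4170 transcripts still had an unadjusted p under 0.05 in limma), 3 without 29°C ZT3 and 2 without 29°C ZT23. The fits without 18°C ZT23 and without 29°C ZT23 are the same for this contrast, as the ZT23 library left is absorbed by its time point. No gene's call below therefore stands free of the single libraries, and the values in each library carry the description.

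The median difference over all 8304 genes was 0.13. It was 0.06 when libraries were scaled to their 75th percentile and -0.00 after quantile normalization, so differences should be read relative to 0.13. The split of the called transcripts moved with it, with 413 up and 313 down in the main scaling, 183 up and 433 down with the 75th percentile, and 103 up and 320 down with quantile normalization. At the matched time points, 4299 genes were higher at 29°C at both ZT3 and ZT15, 1820 were lower at both, and 2185 differed in direction.

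The genes named next are the 12 largest rises and the 12 largest falls among the genes that passed the test with and without 29°C ZT15 and whose groups did not overlap, a pool of 40 rises and 67 falls. The rises had differences of 1.12 to 2.38 with standard errors of 0.10 to 0.36 and adjusted p between 0.0183 and 0.0447. The falls had differences of -3.22 to -1.72 with standard errors of 0.12 to 0.37 and adjusted p between 0.00285 and 0.0453. After quantile normalization 8 of the 24 (AttC, tld, Cp18, gt, sage, Yp2, Yp3 and CG31904) no longer passed, with adjusted p from 0.0542 (AttC) to 0.0797 (Yp3). The annotations of DptB, AttC, CG11125, Gnmt and tobi overlap those of CG43109, CG4744, Fa2h, CG43630 and rha in this order, and whether strand was used is not given in the sources used here.

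Immune peptides led the rises. DptB, which encodes the antibacterial peptide diptericin B of the Imd pathway, had 116, 318 and 90.0 at 29°C (ZT3, ZT15 and ZT23), against 35.3 and 47.5 at 25°C (ZT3 and ZT15). Every library at 29°C lay above both at 25°C, and the highest was 29°C ZT15. The difference was 2.10 ± 0.35 (SE, adjusted p = 0.0394), and 1.55 without that library. AttC, an attacin of the same pathway, had 38.9, 99.9 and 43.6 at 29°C and 18.3 and 20.7 at 25°C (difference 1.67, and 1.30 without 29°C ZT15). IM18, an immune-induced peptide gene, had 107, 143 and 63.9 at 29°C against 16.7 and 24.4 at 25°C. Its values equal those of the overlapping gene CG10332 in every library, so that these 2 of the 12 are a single measurement of 2.38 ± 0.36.

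Of the remaining rises, giant (gt), a transcription factor of the embryonic segmentation cascade, had 11.7, 7.76 and 10.4 at 29°C against 3.38 and 3.61 at 25°C. sage, a helix-loop-helix factor known from salivary glands, had 7.06, 5.91 and 6.56 at 29°C against 1.80 and 2.73 at 25°C. tld, which encodes a secreted protease that releases Dpp from its inhibitor, had 5.79, 3.70 and 4.02 at 29°C against 1.01 and 1.29 at 25°C. The 29°C ZT15 library was the lowest of the 29°C libraries for all 3 of these genes.

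Cp18, a chorion protein gene of the ovarian follicle, had 4.52, 3.45 and 3.12 at 29°C and 0.606 and 1.19 at 25°C (difference 1.30 ± 0.21, adjusted p = 0.0392). The summed ovary markers, given above, were high in 29°C ZT15 alone and no higher in 29°C ZT3 and ZT23 than at 25°C. The other rises were CG4020, CG16739, CG3226 and CG11125. CG3226 was the most abundant of these, with 41.4, 43.0 and 36.7 at 29°C and 19.4 and 17.3 at 25°C (difference 1.14 ± 0.10, adjusted p = 0.0183). CG16739 had 4.57, 4.45 and 5.35 at 29°C and 0.728 and 1.20 at 25°C.

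The largest fall was that of CG7214. It had 30.1, 50.7 and 51.8 at 29°C (ZT3, ZT15 and ZT23), against 385 and 390 at 25°C (ZT3 and ZT15), with no overlap. The difference was -3.22 ± 0.23 (SE, adjusted p = 0.0181). Its neighbour Acp1, an adult cuticle protein gene, had 235, 492 and 418 at 29°C against 1268 and 1256 at 25°C, and CG31904 had 125, 259 and 206 against 667 and 660. In both of these the 29°C ZT3 library was the lowest.

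TotA, a humoral stress peptide of the Turandot family, had 26.9, 18.8 and 12.1 at 29°C against 182 and 134 at 25°C (difference -2.75 ± 0.23, adjusted p = 0.0183). TotC, its family member, had 18.0, 8.68 and 9.39 at 29°C against 130 and 50.9 at 25°C, and passed with all libraries (adjusted p = 0.0444) but not without 29°C ZT15 (adjusted p = 0.0616). TotM had 4.49, 2.45 and 1.13 at 29°C and 6.11 and 5.07 at 25°C and did not pass (adjusted p = 0.235). All 3 Turandot genes were thus lower in every library at 29°C than in both at 25°C, as were 13.5% of all genes tested. The difference of TotM was -0.54, and -0.18 without 29°C ZT15.

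phu had the smallest p of these 12 falls. It had 6.56, 6.21 and 5.73 at 29°C and 49.5 and 46.8 at 25°C, a difference of -2.67 ± 0.12 (adjusted p = 0.00285). Obp99a, an odorant binding protein gene, had 23.3, 39.2 and 32.2 at 29°C against 163 and 340 at 25°C. Gnmt, which encodes glycine N-methyltransferase and uses up S-adenosylmethionine, had 16.8, 16.5 and 52.7 at 29°C against 83.3 and 116 at 25°C, where 29°C ZT23 was the highest of its group. CG34166 and CG3603 complete the 12 with differences of -2.06 and -1.72. CG3603 lies inside the gene kirre, and reads of the pair cannot be told apart where strand was not used.

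**Figure D2:**
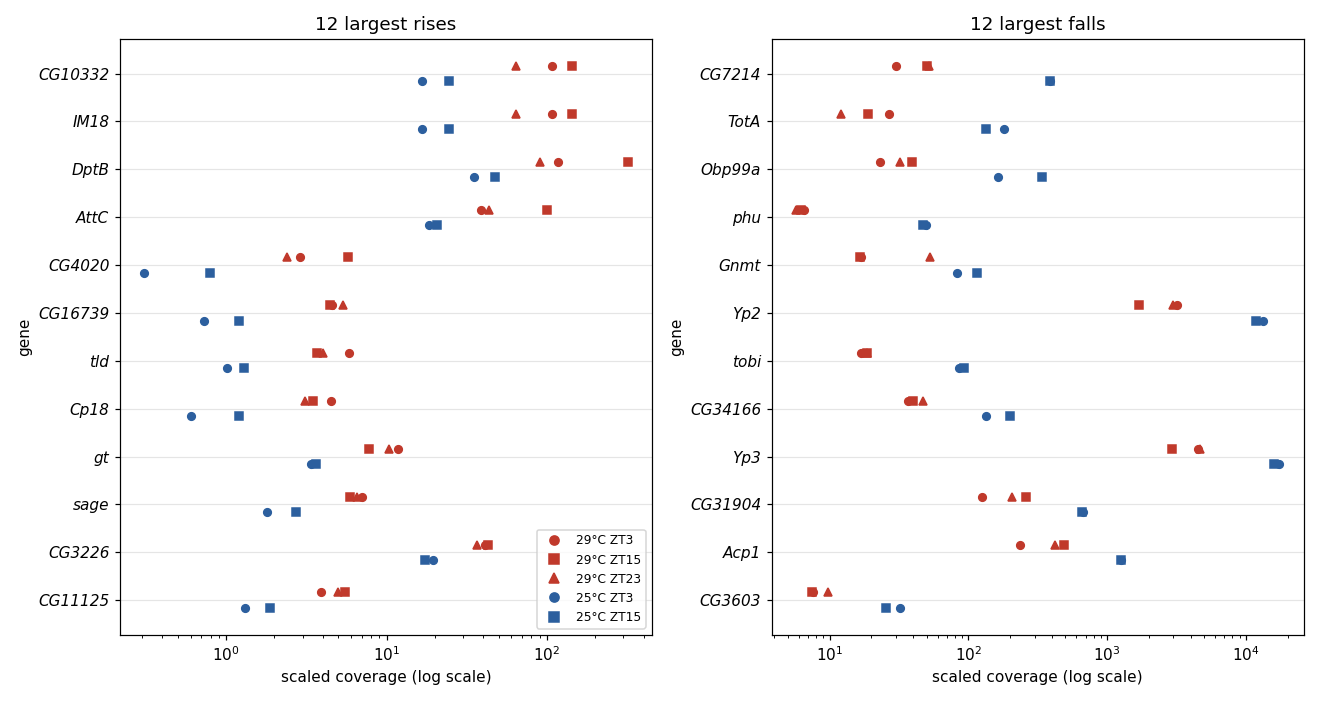
Scaled coverage (log scale) of the 12 largest rises (left) and falls (right), with each gene's 3 libraries at 29°C (red) above its 2 at 25°C (blue) and a symbol for each time point. In all 24 genes the 2 temperatures do not overlap. The greatest distance is that of CG7214, with at most 51.8 at 29°C and at least 385 at 25°C, and IM18 and CG10332 show the same values.

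Of the yolk protein genes, which are among the most abundant transcripts listed, Yp2 and Yp3 fell. Yp2 had 3178, 1694 and 3005 at 29°C (ZT3, ZT15 and ZT23) against 13183 and 11894 at 25°C (ZT3 and ZT15), a difference of -2.26 ± 0.31 (adjusted p = 0.0331). Yp3 had 4502, 2917 and 4681 at 29°C against 17426 and 15845 at 25°C (difference -2.06 ± 0.24, adjusted p = 0.0330). After quantile normalization neither passed, with differences of -1.75 (adjusted p = 0.0649) for Yp2 and -1.14 (adjusted p = 0.0797) for Yp3. Yp1 had 9126, 5304 and 9086 at 29°C against 17471 and 15942 at 25°C and did not pass (difference -1.12 ± 0.27, adjusted p = 0.0616). The fat body of females makes the transcripts of these 3 genes. Their summed level was 16806, 9915 and 16772 at 29°C against 48079 and 43682 at 25°C. The exact two-sided permutation test over the 10 assignments of the 5 libraries gave p = 0.1 for the sum, the smallest p it can give. Some ovary markers at low level, given above with Cp18, were also higher in both 25°C libraries than in 29°C ZT3 and ZT23. The sex of the heads behind each library was not stated. The part of sex or of ovary transcripts in these values was not tested.

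Other genes of the fat body list fell with them. Of the 14 tested members of the list of fat body and sex-biased head genes, 0 rose and 4 fell (Yp2, Yp3, tobi and apolpp), with a median difference of -0.48 beside 0.13 over all genes. Over all genes 2.10% fell. The same 4 passed without 29°C ZT15, where 1.13% of all genes fell, and tobi and apolpp alone after quantile normalization. tobi, an alpha-glucosidase gene known as a target of brain insulin, had 16.8, 18.7 and 18.6 at 29°C against 85.3 and 92.5 at 25°C. apolpp, the main lipoprotein of the haemolymph, had 169, 209 and 95.4 at 29°C against 365 and 533 at 25°C, and its annotation overlaps that of Zyx. The sex-biased genes sxe2 and Cyp4d21, named for their role after their values were seen, had adjusted p of 0.358 and 0.122.

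Chaperone genes rose as a group. Of 41 genes on the list of cytosolic and mitochondrial chaperones, 29 are listed and 28 were tested, and 20 of these rose and 0 fell, where 3.28% of all genes rose. The median difference was 0.72, beside 0.13 over all genes. All 29°C libraries lay above both 25°C libraries in 25 of the 28, against 28.5% of all genes. Without 29°C ZT15 the median was 0.69 and 5 members rose, where 0.626% of all genes rose. With 75th percentile scaling 17 rose (130 of 8296 genes in all) and with quantile normalization 16 rose (72 of 8304 genes in all). The list had 0 falls in both.

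Stip1 (Hop), the co-chaperone that links Hsp70 to Hsp90, had 51.0, 55.5 and 40.6 at 29°C (ZT3, ZT15 and ZT23) against 22.5 and 25.3 at 25°C (ZT3 and ZT15). The difference was 1.08 ± 0.10 (adjusted p = 0.0198), and 1.05 without 29°C ZT15. DnaJ-1, an Hsp40 partner of Hsp70, had 91.5, 88.7 and 73.4 at 29°C against 38.9 and 51.6 at 25°C. Hsc70-4, the constitutive Hsp70, had 1233, 1207 and 1247 at 29°C against 700.1 and 767 at 25°C, with little spread between the 29°C libraries. CG11267, the mitochondrial Hsp10, had 219, 215 and 163 at 29°C against 129 and 128 at 25°C.

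All 8 subunits of the CCT chaperonin, which folds actin and tubulin, passed the test, with differences of 0.59 (CCT2) to 0.93 (CCT8). CCT8 had 41.9, 48.1 and 36.2 at 29°C against 23.2 and 22.5 at 25°C, and CCT5 had 41.4, 46.9 and 36.7 against 25.8 and 27.8. In all 8 subunits 29°C ZT15 was the highest library and 29°C ZT23 the lowest of the 29°C libraries except in CCT6, where ZT3 was lower. The median of the 8 was 0.71 without 29°C ZT15, where CCT8 (adjusted p = 0.0457) passed and the other 7 did not.

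Hsp83, the cytosolic Hsp90, had 302, 315 and 219 at 29°C and 195 and 167 at 25°C (difference 0.74 ± 0.12, adjusted p = 0.0382). Of the small heat shock proteins, l(2)efl had 162, 143 and 147 at 29°C against 77.2 and 88.6 at 25°C (difference 0.95 ± 0.19, adjusted p = 0.0496). Hsp22, a mitochondrial member, had 9.98, 7.88 and 6.70 at 29°C against 3.12 and 3.52 at 25°C, and the same values are listed for the overlapping gene CG4456 (Hsp67Bb), so that 2 of the 20 rises are a single measurement. Hsf, the gene of heat shock factor, had 17.0, 20.5 and 16.3 at 29°C against 15.6 and 15.2 at 25°C and did not pass (adjusted p = 0.177). Hsp60A, the mitochondrial chaperonin, had a difference of 0.36 ± 0.10 (adjusted p = 0.0709). These 5 genes, and Hsc70-4 and DnaJ-1 above, were named after their values had been seen. The 8 CCT subunits were set apart as a group in the same way.

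**Figure D3:**
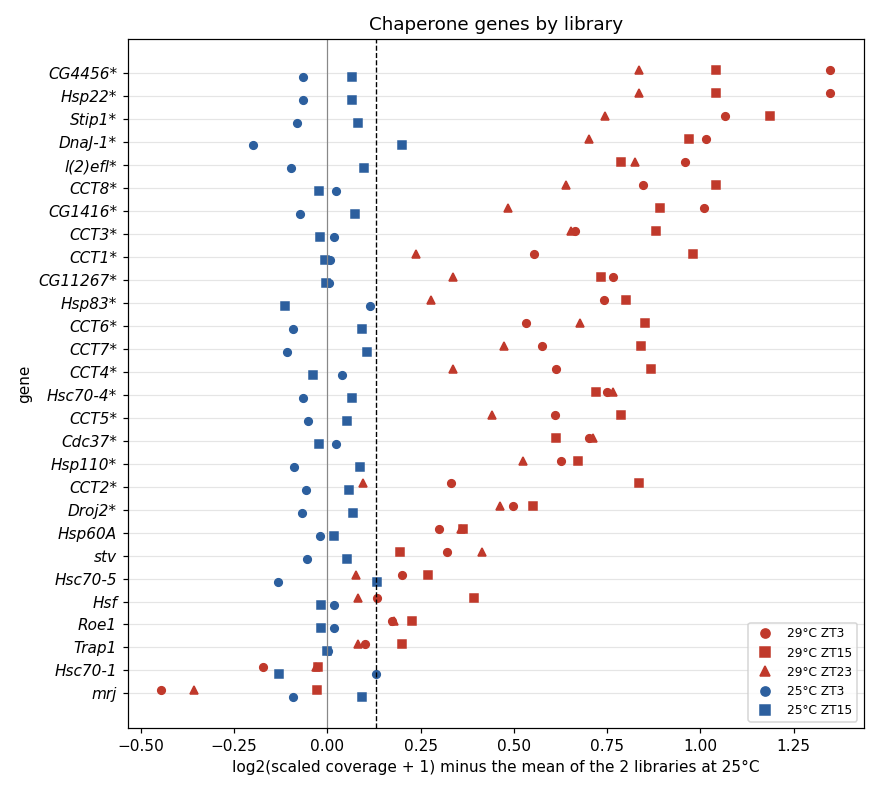
The 28 tested chaperone genes, as log2(scaled coverage + 1) of each library minus the mean of the 2 libraries at 25°C, with 29°C in red above 25°C in blue, the median of all genes as a dashed line and an asterisk for the 20 genes that passed. Members at the top, from CG4456 to Droj2, have all 3 libraries at 29°C above both at 25°C, and mrj and Hsc70-1 at the bottom do not.

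Of 21 tested genes of folding in the endoplasmic reticulum, 1 rose (Edem1, which targets misfolded glycoproteins for disposal) and 0 fell, close to the 3.28% and 2.10% of all genes, with a median of 0.19. Edem1 had 16.3, 16.4 and 14.1 at 29°C against 10.5 and 10.2 at 25°C (difference 0.58 ± 0.11, adjusted p = 0.0453, and 0.0872 without 29°C ZT15). Sec61alpha was lower, with 72.5, 83.5 and 61.5 at 29°C against 111 and 124 at 25°C (difference -0.54 ± 0.13, adjusted p = 0.0616). Hsc70-3, the BiP of flies, had 140, 147 and 136 at 29°C against 104 and 117 at 25°C (adjusted p = 0.0702). All 29°C libraries lay above both 25°C libraries in 8 of the 21 and below both in 4 (28.5% and 13.5% of all genes). Of the 29 tested proteasome subunits 0 passed in limma and 0 had an unadjusted p under 0.05, with a median of 0.08.

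Genes of the cytosolic ribosome were shifted up in nearly every member by a small amount. Of 82 tested genes, 8 rose and 0 fell (3.28% and 2.10% of all genes), with a median difference of 0.36. The difference was positive in 81 of the 82, against 67.7% of all genes, and 67 were higher at an unadjusted p under 0.05 in limma, against 24.5% of all genes. RpS20 had 2477, 2135 and 2084 at 29°C (ZT3, ZT15 and ZT23) against 1514 and 1408 at 25°C (ZT3 and ZT15), a difference of 0.63 ± 0.10 (adjusted p = 0.0382). RpL26 had 1978, 1681 and 1880 against 1343 and 1175, and RpS3 had 1680, 1540 and 1871 against 1224 and 1130. The groups did not overlap in any of these. Without 29°C ZT15 the median was 0.34 and 0 rose, while RpS5b, a paralog at low level, fell. RpS5b had 1.25, 54.0 and 0.553 at 29°C against 3.52 and 2.71 at 25°C, so its direction was set by that library. With 75th percentile scaling the median of the list was 0.28 with 1 rise, and after quantile normalization it was 0.11, with 2 rises and 1 fall (RpL38).

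Mitochondrial ribosomal proteins had a median of 0.25 over 63 tested genes, with 3 rises (mRpL32, mRpL1 and mRpS18B) and 1 fall. Over all genes 3.28% rose and 2.10% fell. Only the fall passed without 29°C ZT15. mRpL32 had 20.8, 25.2 and 20.0 at 29°C against 13.4 and 16.0 at 25°C. The fall was mRpS5, with 22.0, 29.1 and 9.08 at 29°C against 44.2 and 54.1 at 25°C (difference -0.97 ± 0.11, adjusted p = 0.0330). Of the 69 tested genes of oxidative phosphorylation 0 passed in limma, and the median was -0.17. At an unadjusted p under 0.05, 1 was higher and 15 were lower, where 24.5% and 9.04% of all genes were. COX7AL2, a subunit of cytochrome c oxidase, had 97.9, 101 and 67.9 at 29°C against 165 and 146 at 25°C (adjusted p = 0.0545, and 0.0497 without 29°C ZT15).

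Among the enzymes of detoxification, 1 of 55 tested cytochrome P450 genes rose and 8 fell (3.28% and 2.10% of all genes), with a median of -0.31. Cyp6w1 had 25.8, 28.2 and 21.1 at 29°C against 58.8 and 59.8 at 25°C (difference -1.22 ± 0.18, adjusted p = 0.0354). Cyp6d5 had 129, 150 and 139 at 29°C against 266 and 261 at 25°C, and Cyp4ac1 had 20.7, 19.8 and 18.0 against 37.7 and 39.2. The rise was Cyp4e3, with 3.29, 8.58 and 3.01 at 29°C against 0.989 and 0.906 at 25°C. Leaving out 29°C ZT15 left 0 rises and 5 falls (0.626% and 1.13% of all genes). Of 18 glutathione S-transferases only GstE14, which is needed for ecdysteroid synthesis, passed, as a fall, with 17.3, 20.8 and 12.9 at 29°C against 32.8 and 34.9 at 25°C.

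In the list of glycolysis, trehalose and glycogen, 18 of 20 tested genes were negative, against 32.3% of all genes, with a median of -0.26, and 1 of the 20, tobi, passed. Pgk, phosphoglycerate kinase, had 198, 176 and 200.2 at 29°C against 281 and 230 at 25°C (adjusted p = 0.0606), and Ldh, lactate dehydrogenase, had 6.18, 5.90 and 7.67 against 11.0 and 13.0 (adjusted p = 0.0696). In the list of lipid synthesis and storage, 1 of 19 genes passed, as a fall, where 2.10% of all genes fell. This was Desat1, the delta-9 desaturase that makes the precursors of cuticular pheromones, with 814, 868 and 928 at 29°C against 1288 and 1396 at 25°C (difference -0.66 ± 0.10, adjusted p = 0.0382). Its adjusted p was 0.0771 without 29°C ZT15.

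Cuticle genes had a median of -0.18 over 42 tested members, and 1 fell, where 2.10% of all genes fell. Lcp1, a larval cuticle protein, was at 0.298, 0.277 and 0.308 at 29°C against 1.67 and 2.85 at 25°C (difference -1.32 ± 0.16, adjusted p = 0.0330). Without 29°C ZT15 the median was -0.36 and 4 fell (1.13% of all genes). Among odorant binding proteins, 27 tested, Obp99a and Obp99c fell and Obp56a rose, where 2.10% of all genes fell and 3.28% rose. Obp99c had 1136, 1172 and 1062 at 29°C against 1680 and 1499 at 25°C, and Obp56a had 61.7, 70.7 and 76.8 against 35.1 and 48.5. Only Obp99a passed without 29°C ZT15.

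The antimicrobial list did not move as a whole. Of 23 tested peptides, DptB and AttC rose and 0 fell (3.28% and 2.10% of all genes), and the median was 0.20. BomS3, a Toll-induced bomanin, had 1806, 1801 and 1440 at 29°C against 1048 and 1080 at 25°C and missed the threshold (adjusted p = 0.0520). BomBc3 had a difference of 0.55 ± 0.31 (adjusted p = 0.246). Of the 13 tested genes of pathogen recognition and the Turandot family, 0 rose and TotA and TotC fell, where 2.10% of all genes fell.

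Among peptide hormones, Ilp5 and CCHa2 fell, 2 of 27 tested neuropeptide genes, where 2.10% of all genes fell. Both fell with and without 29°C ZT15. Ilp5, an insulin-like peptide of the insulin-producing cells of the brain, had 20.6, 13.4 and 14.7 at 29°C (ZT3, ZT15 and ZT23) against 60.5 and 53.6 at 25°C (ZT3 and ZT15). The groups did not overlap, and the difference was -1.69 ± 0.13 (adjusted p = 0.0183). Ilp2 and Ilp3 are made in the same cells and were named after their values were seen. Ilp2 had 87.4, 70.8 and 60.7 at 29°C against 84.9 and 82.7 at 25°C, and Ilp3 had 24.1, 16.0 and 21.4 at 29°C against 24.4 and 22.7 at 25°C. Neither passed (adjusted p = 0.484 and 0.406). CCHa2, a nutrient-dependent peptide that acts on insulin release, had 46.8, 56.3 and 38.6 at 29°C against 85.7 and 97.1 at 25°C (difference -0.87 ± 0.13, adjusted p = 0.0375).

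In the list of insulin and TOR signalling, 1 of 23 rose and 1 fell (Ilp5), where 3.28% and 2.10% of all genes did. The median was 0.23. The rise was Lk6, a kinase of the translation factor eIF4E, with 397, 403 and 484 at 29°C against 246 and 256 at 25°C (difference 0.65 ± 0.09, adjusted p = 0.0350). Its adjusted p was 0.0587 without 29°C ZT15.

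Of 22 tested genes of transmitter release, 0 rose and 3 fell (3.28% and 2.10% of all genes), with a median of -0.12. Snap25, a SNARE protein of the synapse, had 62.3, 70.7 and 38.0 at 29°C against 138 and 143 at 25°C (difference -1.12 ± 0.11, adjusted p = 0.0198). cpx, which encodes complexin, had 247, 265 and 215 at 29°C against 432 and 523 at 25°C. ple, tyrosine hydroxylase of dopamine and cuticle tanning, had 24.0, 13.7 and 21.4 at 29°C against 62.4 and 35.0 at 25°C and did not pass without 29°C ZT15 (adjusted p = 0.0643). Of the neuronal markers, nSyb had 231, 229 and 314 at 29°C against 136 and 187 at 25°C, and elav, brp and Syt1 overlapped between the groups.

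Phototransduction genes, 35 tested, gave 0 calls in limma, with a median of 0.18. At an unadjusted p under 0.05, 11 were higher and 3 lower, near the 24.5% and 9.04% of all genes. ninaE, the main rhodopsin, had 15409, 13263 and 17003 at 29°C against 9092 and 10587 at 25°C (difference 0.51 ± 0.13, adjusted p = 0.0697). trp, the light-gated channel, had 601, 729 and 766 against 391 and 575 (adjusted p = 0.0520). Cds was lower, with 132, 132 and 99.2 at 29°C against 170 and 170 at 25°C (adjusted p = 0.0681). ninaB was lower as well, with 28.6, 37.0 and 25.0 against 42.1 and 45.6 (adjusted p = 0.0749). All 29°C libraries lay above both 25°C libraries in 14 of the 35 and below both in 4 (28.5% and 13.5% of all genes). After quantile normalization 2 members of the list rose.

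In the list of splicing factors, 2 of 25 rose and 0 fell (3.28% and 2.10% of all genes), and the median was 0.25. tra, the sex determination splicing factor, had 14.0, 11.5 and 10.7 at 29°C against 6.05 and 6.34 at 25°C (difference 0.87 ± 0.13, adjusted p = 0.0374). Its annotation overlaps that of l(3)73Ah. snRNP-U1-70K had 17.7, 20.2 and 20.6 at 29°C against 12.3 and 13.9 at 25°C. Neither passed without 29°C ZT15 (adjusted p = 0.0531 and 0.108).

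Of the temperature-related genes, 1 of 8 tested members passed, as a fall, where 2.10% of all genes fell. smp-30, a calcium-binding protein known to rise in the cold, had 18.8, 19.9 and 19.0 at 29°C against 62.2 and 52.5 at 25°C (difference -1.47 ± 0.14, adjusted p = 0.0198). regucalcin was lower, with 205, 215 and 230 at 29°C against 318 and 353 at 25°C (difference -0.60 ± 0.14, adjusted p = 0.0591). The warmth sensor pyx, at a low level, had 1.99, 2.07 and 1.84 against 1.38 and 1.65 (adjusted p = 0.0985). Of 7 tested activity-induced genes 0 passed in limma, with 1 at an unadjusted p under 0.05.

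**Figure D4:**
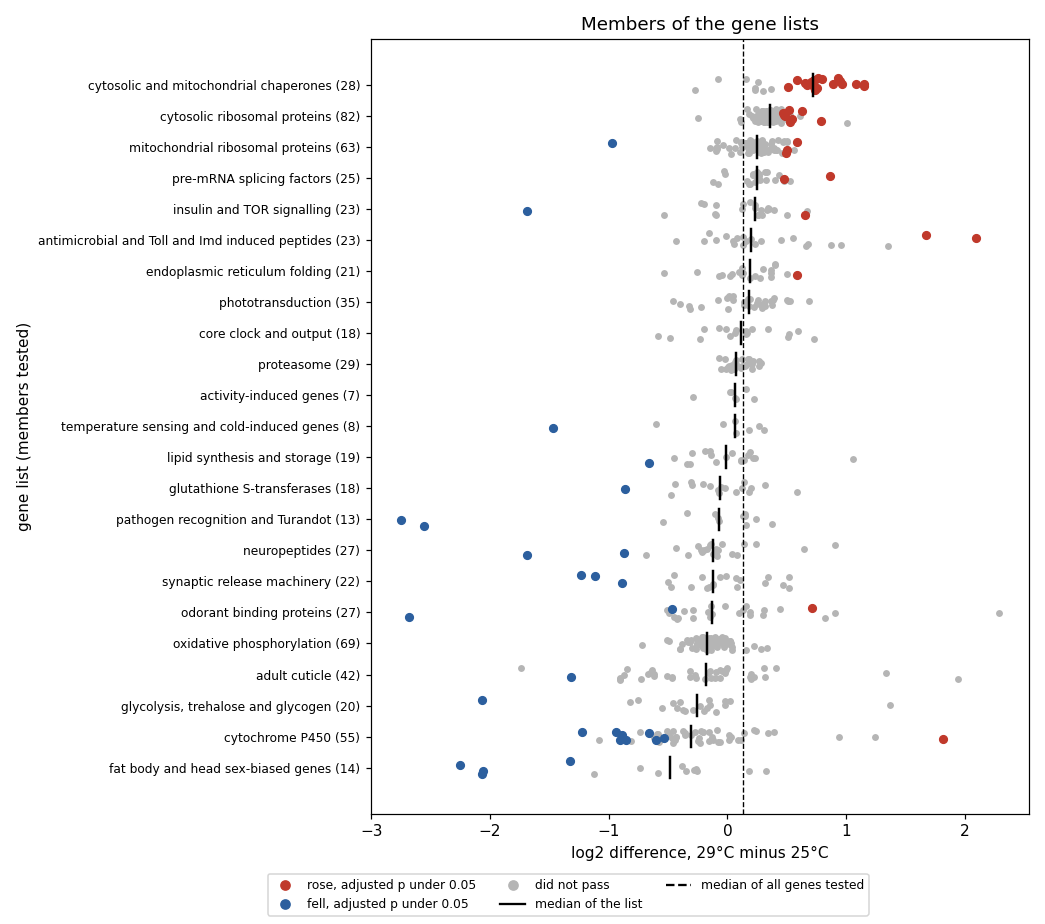
Log2 difference, 29°C minus 25°C, of each tested member of 23 gene lists, ordered by the median of the list (black bar), with members that rose in red and members that fell in blue. The dashed line is the median of all genes, 0.13. The chaperone list has the highest median, 0.72 with 20 of 28 members past the threshold, and the list of fat body and sex-biased genes the lowest, -0.48.

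Of 18 tested genes of the clock list, 0 passed in limma. At an unadjusted p under 0.05, 3 were higher and 2 lower, where 24.5% and 9.04% of all genes were. In the clock, Clk and cyc drive per, tim, vri, Pdp1 and cwo, whose products in turn hold back or restore Clk. per had 5.84, 18.1 and 8.56 at 29°C (ZT3, ZT15 and ZT23) against 5.50 and 22.7 at 25°C (ZT3 and ZT15). tim had 21.3, 152 and 61.0 at 29°C against 13.2 and 143 at 25°C. Both were higher at ZT15 than at ZT3 at either temperature.

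vri had 11.6, 82.3 and 20.1 at 29°C against 9.39 and 87.2 at 25°C, and Pdp1 had 86.3, 162 and 98.3 against 99.8 and 177. cwo had 13.5, 23.7 and 14.3 at 29°C against 13.1 and 27.3 at 25°C. Clk had 12.6, 5.72 and 13.6 at 29°C against 7.31 and 4.57 at 25°C (difference 0.52 ± 0.16, adjusted p = 0.0931). cyc had 14.8, 16.2 and 14.0 against 13.9 and 15.4, and the photoreceptor cry had 94.4, 40.0 and 79.5 against 92.8 and 41.0. In all 8 clock genes the 2 temperatures overlapped.

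Summed over its 8 listed transcripts, tim had 165, 1175 and 470.4 at 29°C against 100.4 and 1100 at 25°C (difference 0.43, exact two-sided permutation p = 0.7, where no p under 0.1 is possible). The exact test ignores the time point, and at ZT3 and at ZT15 the 29°C value was the higher. Stretches shared by these transcripts can count for each of them, so the sum is larger than the coverage of the gene.

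Transcript use, the level of a transcript relative to the others of its gene, passed the test (limma diffSplice) in 4 of 3034 genes (0.132%), cpx, Lmpt, nemy and Orai, with 54 genes at an unadjusted p under 0.05. Coverage is averaged over each transcript, and stretches shared by transcripts can count for each of them, as in IM18 and CG10332. The percentages below are thus shares of the gene's summed coverage and not of its RNA molecules. In cpx CG32490-RE took 4.98%, 5.43% and 8.46% at 29°C (ZT3, ZT15 and ZT23) against 2.13% and 2.80% at 25°C (ZT3 and ZT15). Its adjusted p in limma diffSplice was 4.99e-09. In Lmpt, a LIM domain gene, CG11915-RA took 5.07%, 4.10% and 5.77% at 29°C against 2.55% and 2.29% at 25°C (adjusted p = 7.36e-08). The groups did not overlap in either. In nemy, a cytochrome b561 gene, CG8776-RC took 6.76%, 8.61% and 7.10% at 29°C against 10.5% and 11.7% at 25°C. In Orai, the store-operated calcium channel, CG11430-RC took 14.4%, 15.3% and 16.2% against 9.67% and 11.5%. Orai overlaps 2 other annotated genes, and cpx and Lmpt overlap 1 each. In the fit without 29°C ZT15, 3 genes passed.

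Genes were also grouped by chromosome, a grouping chosen after single genes had been seen, and chromosome 4, which is small and largely heterochromatic, held more falls than rises. Of 76 tested genes, 1 rose (CR43361) and 15 fell (19.7%, where 2.10% of all genes fell), with a median of -0.19, beside medians of 0.11 to 0.17 on the other arms. The other 60 did not pass. All 29°C libraries lay below both 25°C libraries in 30 of the 76, against 13.5% of all genes. Without 29°C ZT15, 0 rose and 7 fell (0.626% and 1.13% of all genes), and the median was -0.22. Without 29°C ZT23, 0 passed in limma, as in that fit 2 transcripts of all chromosomes passed (27 of the 76 were lower at an unadjusted p under 0.05), and the median was -0.16. With 75th percentile scaling 21 fell (227 of 8296 genes in all), and with quantile normalization 18 fell (192 of 8304 genes in all).

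Among the 15, Gat, a transporter of GABA, had 28.0, 40.0 and 15.4 at 29°C (ZT3, ZT15 and ZT23) against 62.0 and 66.2 at 25°C (ZT3 and ZT15), a difference of -1.01 ± 0.17 (adjusted p = 0.0421). Syt7, a synaptotagmin, had 19.3, 24.8 and 13.3 at 29°C against 38.4 and 49.5 at 25°C, and Cals, calsyntenin, had 40.1, 54.3 and 26.6 against 76.4 and 104. Pur-alpha had 28.8, 36.7 and 15.8 at 29°C against 53.6 and 65.4 at 25°C. In all 4, and in apolpp of the same chromosome, 29°C ZT23 was the lowest library.

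The median of the chromosome 4 genes relative to their mean at 25°C was -0.28, -0.04 and -0.70 at 29°C, against -0.18 and 0.18 at 25°C. The range of the medians of the other arms was 0.04 to 0.09, 0.20 to 0.25 and -0.02 to 0.11 in the libraries at 29°C, and -0.04 to -0.03 and 0.03 to 0.04 at 25°C. The chromosome 4 medians thus overlapped between the temperatures, 29°C ZT15 lying above 25°C ZT3, and differed between libraries of a single temperature as well. Snap25 and mRpS5, which lie in the heterochromatin of chromosome 3 near the centromere, were also lowest in 29°C ZT23. Base composition was not available for these transcripts, and its part was not tested.

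**Figure D5:**
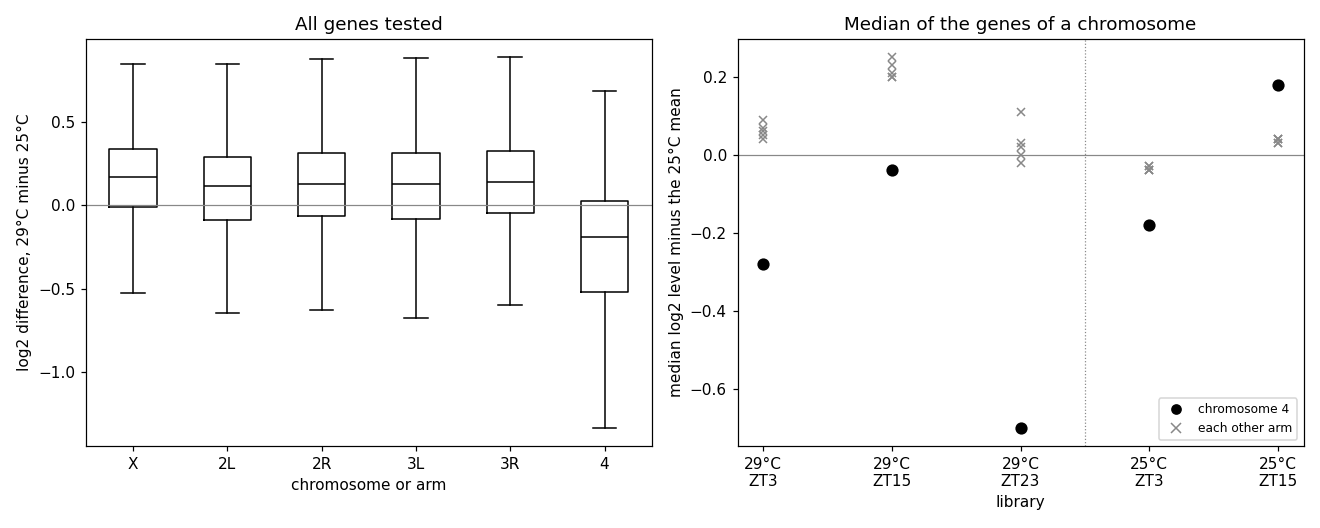
Left, log2 difference, 29°C minus 25°C, of all tested genes by chromosome or arm (line, median; box, quartiles; whiskers, values within 1.5 box lengths). Right, median level of the genes of each chromosome relative to the 25°C mean in the 5 libraries, with chromosome 4 as filled circles. Chromosome 4 has a median difference of -0.19, and its lowest library is 29°C ZT23 at -0.70.

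The 18°C libraries place these differences on a wider scale, as levels side by side and with no test, since the steps below and above 25°C share the 25°C libraries. For 11 of the 12 largest rises, of which IM18 and CG10332 are a single measurement, all 3 libraries at 18°C lay below both at 25°C, as they did in 14.9% of all genes tested. DptB had 5.88, 5.25 and 3.84 at 18°C, 35.3 and 47.5 at 25°C and 116, 318 and 90.0 at 29°C. For 3 of the 12 largest falls (CG7214, Acp1 and CG31904) the 18°C libraries lay above both at 25°C, as in 32.0% of all genes. CG7214 had 1281, 1047 and 1191 at 18°C, 385 and 390 at 25°C and 30.1, 50.7 and 51.8 at 29°C.

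For 7 of the 12 falls (TotA, phu, Gnmt, Yp2, Yp3, tobi and CG34166) the 18°C libraries lay below both 25°C libraries as well. These genes were chosen for 25°C levels above those at 29°C, which by itself favours 18°C levels below 25°C, so nothing is read from the count. phu had 29.4, 26.3 and 19.0 at 18°C, 49.5 and 46.8 at 25°C and 6.56, 6.21 and 5.73 at 29°C. The chaperonin gene CCT8 had 21.9, 28.1 and 20.9 at 18°C, 23.2 and 22.5 at 25°C and 41.9, 48.1 and 36.2 at 29°C, with overlap of the lower temperatures and none with 29°C. The 18°C libraries lay below all of the 29°C libraries in 6 of the 8 CCT subunits and overlapped with them in CCT1 and CCT2. The subunits were taken up here with their rise at 29°C known, which by itself favours 18°C levels below those at 29°C. The share over all genes was not taken, so nothing is read from this count.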

How the data were processed

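PolyA+ RNA of Canton-S heads was sequenced by the authors as paired ends and aligned to dm3. The submitters' processing notes name Bowtie2, TopHat and Cufflinks without roles or versions. The authors deposited a signal, the average coverage per base pair of 18387 transcripts, which is not a count, so no count test or counting interval was used and precision came from the spread between libraries. The table also has 75 unnamed columns, not used.

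Values were scaled to a sum of 1000000 per library, and the 14799 transcripts whose mean was 1 or more were tested. The model in limma 3.58.1 (R 4.3.3) took log2(value + 1) of the 8 libraries, with temperature and the time point as a block, and p-values adjusted by Benjamini-Hochberg were held against 0.05. The time point pairs libraries by the labels. The correlation of deviations was 0.12 between 29°C and 25°C, and 0.10 to 0.31 between 29°C and 18°C. Transcript use was tested with diffSplice. The scripts were tested on simulated data. Plots used matplotlib 3.10.9 in Python 3.11.15.

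Gene symbols (RefSeq) were matched for 11371 of 11500 identifiers, and overlaps, introns and chromosomes were read from current annotations, not from dm3. Each gene is represented by its transcript of highest mean. Named are the 12 largest rises and falls past both fits without overlap, 8 clock genes and, in most lists, some of the 4 members of smallest p. In places a member of smaller p than those named was left out. Others are markers, stand for a count of 5 or fewer, or were chosen with their values known, which is not said at each. The comparison and the lists were chosen with earlier results of these data known. Alternatives were other pseudocounts, filters and scalings, fits without the block or with fewer libraries, limma's trend, 1 transcript per gene, and leaving out each library.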

Additional observations from a re-analysis of the deposited data

Results flagged for a closer look

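Of the genes named here, Syt1 (synaptotagmin 1, the calcium sensor of transmitter release) and RpS5b (a ribosomal protein paralog) moved in opposite directions at the 2 matched time points by at least 0.25 on the log2 scale at each. The difference of Syt1, 29°C minus 25°C, was 0.26 at ZT3 and -0.37 at ZT15. It had 105, 120 and 108 at 29°C (ZT3, ZT15 and ZT23) against 87.6 and 155 at 25°C (ZT3 and ZT15). For RpS5b the difference was -1.01 at ZT3 and 3.89 at ZT15, with 54.0 in 29°C ZT15 and at most 3.52 in the other 4. The marker sums of accessory gland, testis, ovary and midgut were also highest in 29°C ZT15. The contrast between the time points was not tested, as each has 1 library per temperature. The neuronal markers elav and brp were also lowest in 25°C ZT3, with 15.7 and 15.2.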

How the results depend on the processing

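The number of called transcripts, 726 in all, was 306 with a pseudocount of 0.1 and 1213 with 5, 28 with no filter on low values and 1512 with a minimum mean of 5, 423 with quantile normalization (616 with the 75th percentile) and 1473 with limma's trend. It was 284 with 1 transcript per gene, where fewer tests are made. Without the time point as a replicate block it was 138, with only the 25°C and 29°C libraries and no replicate block 4, and with only the 4 matched libraries and the replicate block, where 1 residual degree of freedom is left, 0 (3632 at an unadjusted p under 0.05). Leaving out each library gave 0 to 199. Transcript use gave 2 genes without the replicate block and 2 to 5 when a library was left out. Of the 96 called genes that were followed through the alternatives, 0 turned their direction, while RpS5b, not called with all libraries, did so without 29°C ZT15. Of the 24 largest changes, which were chosen to pass without 29°C ZT15, 24 passed with 75th percentile scaling, a pseudocount of 5 and limma's trend, 22 with 1 transcript per gene, 21 without the block, 16 with a pseudocount of 0.1, 16 with quantile normalization, 7 with no filter, 3 with only the 25°C and 29°C libraries, 0 with the 4 matched libraries, and 0 to 8 when a library other than 29°C ZT15 was left out. The depth is unknown, so low levels such as those of Lcp1 or Cp18 carry an error that cannot be given.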

Other observations

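Gene groups that were written down after the named genes had been seen give counts only, with no test of the group. In a list of ribosome biogenesis genes, 17 of 39 rose and 0 fell, where 3.28% of all genes rose and 2.10% fell. The median difference was 0.58 beside 0.13 over all genes, and all 39 were positive, against 67.7% of all genes. The fit without 29°C ZT15 gave 3 rises (0.626% of all genes) and a median of 0.43. With quantile normalization 4 rose (72 of 8304 genes in all). Myc, a transcription factor that drives ribosome production, had 24.6, 28.5 and 26.2 at 29°C (ZT3, ZT15 and ZT23) against 14.5 and 18.1 at 25°C (ZT3 and ZT15). Polr1A, the large subunit of RNA polymerase I, had 5.44, 6.51 and 5.17 at 29°C against 3.07 and 3.41 at 25°C. Fib, fibrillarin of the nucleolus, had 18.1, 27.1 and 21.2 against 13.1 and 14.6. Of 16 aminoacyl-tRNA synthetase genes, 2 rose (LeuRS and AsnRS), 0 fell and the median was 0.33, and without 29°C ZT15 0 passed in limma.

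In a list of amino acid breakdown, 0 of 22 genes rose and 9 fell (3.28% and 2.10% of all genes), with a median of -0.49. Gnmt, Gcat and Daao2 still fell without 29°C ZT15, where 1.13% of all genes fell. Gcat, which breaks down threonine by way of glycine, had 4.71, 5.03 and 5.68 at 29°C against 14.6 and 13.3 at 25°C. Hn, phenylalanine hydroxylase, had 226, 205 and 201 at 29°C against 347 and 326 at 25°C, and Oat, ornithine aminotransferase, had 24.6, 21.0 and 28.4 against 43.2 and 43.1. The groups did not overlap in any of these 3. Yolk protein genes, which mark fat body, were lower in the same libraries, and their part in these values was not tested.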
